A study of Mus musculus with 21 samples.

Results

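The medulloblastoma line SMB21, grown from a mouse tumour driven by sonic hedgehog (SHH), was profiled by RNA-seq in a pair of control states. The first is shLuc, cells transduced with a hairpin RNA against luciferase, a gene that mouse cells lack, and selected with puromycin. The second is DMSO 24 h, cells that received only the solvent of the drug for 24 h. Each state has 3 libraries, taken by their labels, so 6 of the 21 libraries of the series form the comparison. Neither group received the drug of the series, the histone deacetylase (HDAC) inhibitor quisinostat (JNJ). All libraries come from the same line in the same medium, DMEM/F12 with B-27. Other groups are used for reference. They are DMSO for 2 h, JNJ for 2 h and 24 h, and the same virus and puromycin procedure with a hairpin against Hdac1 (shHdac1) or Hdac2 (shHdac2), again with 3 libraries each. The labels give no untransduced cells with puromycin, no cells with virus alone and no time after transduction, so virus, hairpin and selection cannot be told apart. Nor do they tie the 3 libraries of a group to separate cultures. The p-values therefore measure only how far these libraries scatter, and that scatter may be technical.

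A control hairpin is used to hold constant what transduction itself does to a cell. The virus inserts its DNA into the genome, the cell makes a hairpin RNA that enters the RNA interference machinery (Drosha, Dicer1 and the Argonaute proteins), and puromycin, an inhibitor of protein synthesis, kills the cells that lack the resistance gene. Such a procedure is known to be able to touch the interferon response, stress pathways and the density at which surviving cells grow. Oxygen supply falls in dense cultures, and cells then stabilise hypoxia-inducible factor, which raises glycolytic enzymes, glucose transporters, Vegfa and its own brake, the prolyl hydroxylase Egln3.

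Total counts were 23094799, 25286698 and 26738741 reads in shLuc 1 to 3 and 33829963, 37888863 and 36631722 in DMSO 24 h 1 to 3. Markers of the cerebellar granule lineage, from which SHH medulloblastoma arises, had counts for 24 of 25 list members in each of the 6 libraries and summed to 3114 to 3256 CPM (counts scaled to the size of each library) in shLuc and 2949 to 3356 in DMSO 24 h. Markers of non-neural cells (blood, vessel, fibroblast, epithelium, muscle, liver) summed to 34.4 to 116 CPM in shLuc and 34.8 to 81.0 in DMSO 24 h. Of these 31 markers, Thy1 had the most counts over the 6 libraries, 8915, at up to 83.5 CPM, so the sum rests largely on 1 marker. Col3a1 had 795 counts, Cdh5 663, Lum 455, Col1a1 348 and Cd68 330. Aif1, Hba-a1, Hbb-b1 and Myod1 had no count in any of the 6 libraries, Cd3e had 1 count in all and Ptprc 13. The sums are therefore no measure of how pure the cultures were. Hdac1, the target of one of the other hairpins, was measured at 88.1, 94.0 and 100 CPM in shLuc and 88.6, 86.8 and 101 in DMSO 24 h. Hdac2 was measured at 306, 298 and 343 CPM in shLuc and 363, 351 and 386 in DMSO 24 h. The Hdac2 libraries did not overlap, and its log2 difference of -0.22 had an adjusted p of 0.35 in edgeR's quasi-likelihood test.

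With all libraries, few genes separated the control states. Of 13992 genes tested, 12 were called at an adjusted p below 0.05 (0.0858% of the genes tested), 2 higher in shLuc (0.0143%) and 10 lower (0.0715%). At an unadjusted p below 0.05 the count was 1861. With the replicate number as a block the count was 37 (0.264%), 20 higher (0.143%) and 17 lower (0.121%). DESeq2 called 208 genes, 136 higher and 72 lower, and limma-voom called 16. In a fit to the 6 libraries alone, edgeR called 0 genes, with 1545 at an unadjusted p below 0.05. Replicates 1 and 2 of each hairpin group nearly repeat each other, as described below. With them summed to 1 library, edgeR also called 0 genes, with 642 at an unadjusted p below 0.05. The 12 calls therefore rest on counting these libraries as separate.

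The 10 lower genes were Rpl14-ps1, Gm6548, Gm6251, Npm3-ps1, Mir682, Psme2b, Aldoart1, Tubb2a-ps2, Gm3258 and Gm13498. They include retrocopies, made when an mRNA is reverse transcribed and inserted elsewhere in the genome, and 8 of the 10 could be aligned to a protein-coding transcript. In the annotated transcripts (GENCODE vM21) Rpl14-ps1 was identical to Rpl14, a protein of the large ribosomal subunit, in 99.4% of 653 aligned bases. Npm3-ps1 matched the histone chaperone gene Npm3 in 98.9%, Psme2b matched the proteasome activator gene Psme2 in 99.4%, and Gm6548 matched the translation elongation factor gene Eef1a1 in 96.9%. Tubb2a-ps2 was closest to Tubb2b, a tubulin, at 97.8%, Aldoart1 to Aldoa, an aldolase, at 93.7%, and Gm13498 to Hsp90ab1, a chaperone, at 89.2%. The 96 bases of Mir682 matched the ribosomal protein gene Rpl37a in all but 1. Of the stretches of 75 bases, the read length, in Rpl14-ps1, 68.7% also occur unchanged in a transcript of Rpl14, so a read from one can often not be told from a read of the other. The stretch of the coding part of Rpl14 with the most differences shows how little parts them. It is shown with the differing bases in capitals.
Rpl14: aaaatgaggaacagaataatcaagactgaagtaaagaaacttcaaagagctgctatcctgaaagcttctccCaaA
Rpl14-ps1: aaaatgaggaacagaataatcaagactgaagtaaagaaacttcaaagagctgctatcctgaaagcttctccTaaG
Counted from 1 at the 5′ end of this stretch, the differences of the copy from the parent are C72T and A75G. The share of unchanged stretches was 60.2% for Psme2b, 44.1% for Npm3-ps1 and 13.2% for Tubb2a-ps2. It was 2.38% for Gm6548, 0.961% for Aldoart1, 0.382% for Gm13498 and 0% for Mir682, so the example of Rpl14-ps1 does not describe these. Where the share is large, the counts of a copy are uncertain. They depend on how reads that fit several places were assigned, which is not given in the sources used here.

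Rpl14-ps1 was measured at 8.89, 9.57 and 8.26 CPM in shLuc 1 to 3 and 32.7, 29.3 and 40.9 in DMSO 24 h 1 to 3. Its log2 change was -1.94 (SE 0.21, adjusted p = 0.0028 in edgeR), and the groups were far apart. Npm3-ps1 was measured at 0.501, 0.880 and 0.892 CPM in shLuc and 4.00, 3.15 and 5.52 in DMSO 24 h (log2 change -2.47, adjusted p = 0.010 in edgeR). Gm6548 was measured at 7.31, 7.77 and 5.47 CPM in shLuc and 17.8, 19.2 and 24.3 in DMSO 24 h (log2 change -1.58, adjusted p = 0.0028 in edgeR). The other 7 had log2 changes from -2.02 (Psme2b) to -3.24 (Tubb2a-ps2), all at under 6 CPM. Of the closest genes, 3 are given, and none of them was called. Rpl14 was measured at 868, 942 and 859 CPM in shLuc and 674, 604 and 733 in DMSO 24 h, Npm3 at 116, 125 and 136 and at 125, 114 and 160, and Psme2 at 61.7, 68.4 and 59.3 and at 60.3, 58.2 and 61.7. The adjusted p of these parents in edgeR was 0.31, 0.84 and 0.78.

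The ratio of a copy to its parent split the libraries in a way the groups do not follow. Counts of Rpl14-ps1 were 4.36 to 5.78% of those of Rpl14 in 10 libraries, all 6 DMSO libraries, the 3 JNJ 2 h libraries and JNJ 24 h 1. They were 0.962 to 1.22% in the other 11, all 9 hairpin libraries and JNJ 24 h 2 and 3, which received no virus. The same 10 and 11 libraries were apart for Npm3-ps1 (2.54 to 3.46% against 0.369 to 0.904% of Npm3), Psme2b (3.52 to 5.98% against 1.01 to 1.98% of Psme2) and Aldoart1 (0.252 to 0.425% against 0.0184 to 0.0536% of Aldoa). Gm6548 was less clearly split, at 18.2, 14.9 and 11.6 CPM in JNJ 24 h 1 to 3 and 5.47 to 12.9 in the hairpin libraries. Its log2 difference between the sets was -0.45, against -2.42 for Rpl14-ps1. Both are estimated from JNJ 24 h 2 and 3 against JNJ 24 h 1, so a smaller split of Gm6548 cannot be told from none. The labels say that the libraries were sequenced in 2 NextSeq 500 runs and do not say which library was in which. No set holds both shLuc and DMSO 24 h libraries, so within a set the comparison cannot be made, and set and transduction cannot be told apart except through the JNJ 24 h group.

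**Figure D1:**
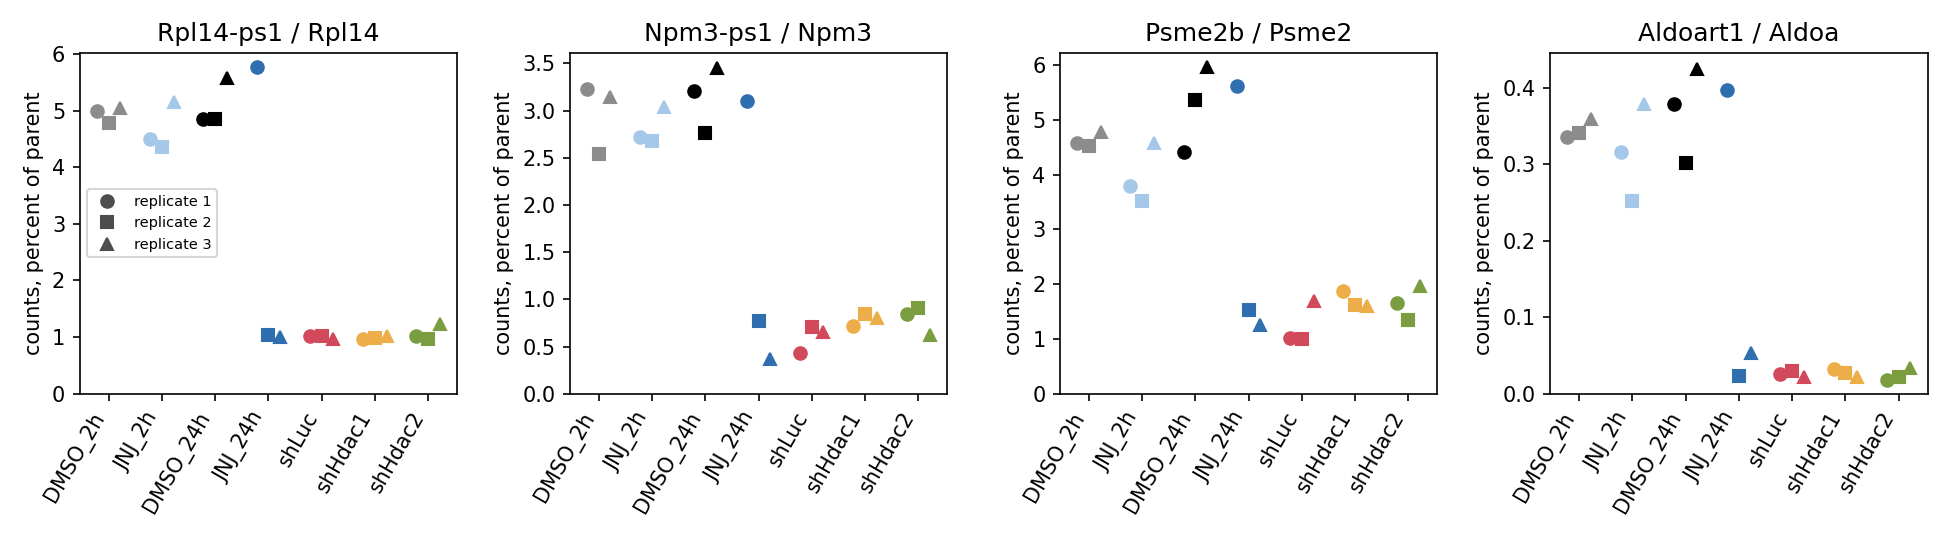
Counts of a copy as percent of the counts of its parent gene (y axis from 0) in each of the 21 libraries, by group (x axis), for 4 pairs; each point is 1 library and its shape gives the replicate. All 9 hairpin libraries and JNJ 24 h 2 and 3 lie low, at 0.962 to 1.22% for Rpl14-ps1, and the other 10 libraries lie high, at 4.36 to 5.78%.

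Rows annotated as pseudogenes made up 5 of the 10 lower calls. Of 108 such rows tested, 5 were called lower (4.63%), against 5 of 13884 other rows (0.036%). In 24 of the 108 (22.2%) all 9 hairpin libraries lay below all 6 DMSO libraries, against 204 of the other rows (1.47%), where over all genes 1.63% lay lower and 1.34% higher without overlap. Of those 24, 19 were also at least 2-fold lower in both JNJ 24 h 2 and 3 than in JNJ 24 h 1, and of the 204 other rows 10 were. Over all tested rows this held for 25.9% of pseudogene rows and 1.87% of the others. Of the 188 genes that lay higher in all hairpin libraries, none was at least 2-fold higher in both JNJ 24 h 2 and 3 than in JNJ 24 h 1, where over all tested rows that are not pseudogenes 0.677% were. The set was also added as a term in a fit of all 21 libraries, which estimates it from JNJ 24 h 2 and 3 against JNJ 24 h 1. Then 0 genes were called in edgeR (818 at an unadjusted p below 0.05), and the log2 change of Rpl14-ps1 was 0.46 with an adjusted p of 0.88. The set was defined by counts of Rpl14-ps1 below 2% of those of Rpl14, so the loss of this gene's difference was built in. With 1 library on one side of the term, 0 calls do not show that no difference remains.

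The 2 genes called higher were Fam101a and Ndufv3. Fam101a (also named Rflna), which codes for a filamin-binding protein, was measured at 43.4, 44.7 and 23.4 CPM in shLuc and 12.9, 14.1 and 10.4 in DMSO 24 h. The groups did not overlap, the log2 change was 1.58 (SE 0.23, adjusted p = 0.015 in edgeR), and shLuc 3 was the lowest of the shLuc libraries. In shHdac1 and shHdac2 it was measured at 34.7 to 59.3 CPM and in DMSO 2 h at 11.0 to 12.6. Ndufv3, a subunit of respiratory complex I, was measured at 62.8, 71.0 and 70.4 CPM in shLuc and 42.3, 41.2 and 36.0 in DMSO 24 h (log2 change 0.77, adjusted p = 0.016 in edgeR). In JNJ 24 h it was measured at 59.0, 87.3 and 65.8 CPM, with both libraries of the low set above the other, as for 34.4% of all genes. The log2 difference between the sets was 0.38 for Ndufv3 and -0.48 for Fam101a. With 1 library left out at a time, Fam101a was called in 2 of 6 fits and Ndufv3 in 1. Of the 12 genes, Rpl14-ps1, Gm6548 and Gm6251 were called in all 6.

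The small number of calls came with a large spread inside shLuc. The first principal component over the 15 libraries without drug (30.9% of the variance of log2 CPM) put shLuc 1 and 2 at 37.8 and 35.5 and shLuc 3 at -24.8, beside DMSO 24 h 2 and 3 at -32.1 and -33.9. DMSO 24 h 1 lay at -0.74. On the second component (24.3%) shLuc 3 lay at -42.9 and DMSO 24 h 2 at 43.1. There the replicate 3 libraries of all 5 groups lay together, from -42.9 to -28.7, and the others from -0.72 to 43.1, so replicate 3 was apart in every group and not in shLuc alone. By contrast shLuc 1 and 2 nearly repeated each other. The median squared difference of their gene counts was 2.28 times that of pure counting noise, against 42.8 and 42.3 times for either of them with shLuc 3 and 22.6 to 39.9 times between DMSO 24 h libraries. They differed by more than counting noise and were kept as separate libraries, but such a difference does not show that they are separate cultures. In shHdac1 and shHdac2 replicates 1 and 2 were also close, at 1.69 and 4.93 times, and replicate 3 was apart, at 19.7 to 27.1 times.

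Without shLuc 3, edgeR called 844 of 14233 genes (5.93%), 486 higher (3.41%) and 358 lower (2.52%), and 1834 with the replicate block. Of the higher genes 321 differed at least 2-fold, and of the lower genes 41. All 12 genes of the full comparison were among the 844. This count treats shLuc 1 and 2 as independent libraries. When their counts were summed to 1 library, and shLuc 3 was again left out, 0 genes were called, with 1398 at an unadjusted p below 0.05. Leaving out shLuc 3 and DMSO 24 h 2 together gave 281 genes, 193 higher and 88 lower. Without DMSO 24 h 3, shLuc 1 or shLuc 2 the count was 3, without DMSO 24 h 2 it was 7, and without DMSO 24 h 1 it was 9. The fit without shLuc 3 also keeps DMSO 24 h 3, although replicate 3 was apart in every group. Without the replicate block, its log2 changes and calls can therefore hold that shift as well. The genes below that are described as called without shLuc 3 rest on shLuc 1 and 2, which nearly repeat each other. They come from this unbalanced fit without the block and are named after their values were seen.

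**Figure D2:**
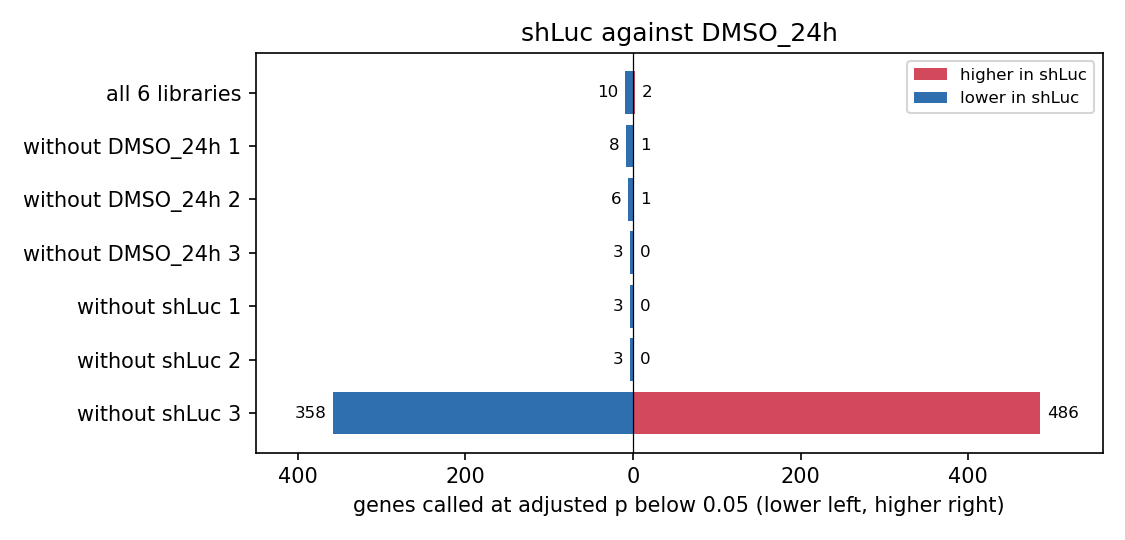
Number of genes called (x axis, lower in shLuc to the left and higher to the right) in shLuc against DMSO 24 h with all 6 libraries and with each library left out in turn (y axis). Without shLuc 3 the bars reach 358 and 486 genes, and in the other fits they stay at or below 10 in each direction.

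The Hdac hairpin libraries gave a comparison that shares no library with shLuc and DMSO 24 h. There 4012 of 13992 genes (28.7%) were called between shHdac1 and shHdac2 together and DMSO 2 h, 1924 higher (13.8%) and 2088 lower (14.9%). The count was 2391 without DMSO 2 h 2, 2107 with hairpin replicates 1 and 2 summed to 1 library, and 14 with the library set as a term. This difference holds the effect of losing Hdac1 or Hdac2 as well as that of virus, puromycin and the library set. Of the 12 genes called in shLuc, 11 were called there in the same direction, which is 91.7% of the 12 and 0.274% of the 4012. Ndufv3 was the exception (log2 change 0.28, adjusted p = 0.053 in edgeR). Of 837 genes called without shLuc 3 and tested in both, 453 were called in the same direction, 252 higher and 201 lower, which is 54.1% of one list and 11.3% of the other. None was called in the opposite direction. Across all 13992 genes, which are not independent replicates, the log2 differences of both comparisons had a Pearson correlation of 0.57 without shLuc 3.

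Of the genes that the Hdac hairpin comparison changed at least 2-fold, 617 were higher with the Hdac hairpins and 267 lower. For each of the 6 control libraries it was counted on how many of these genes the library lay nearer to the mean of the Hdac hairpin libraries than to that of DMSO 2 h. On the 617 higher genes the share was 91.6 and 91.9% for shLuc 1 and 2 and 42.8% for shLuc 3, against 52.7, 19.8 and 30.8% for DMSO 24 h 1 to 3. On these genes shLuc 3 lay among the DMSO 24 h libraries. Each shLuc library lay above the DMSO 24 h library of its own number, but pairing by number is not established. On the 267 lower genes the share was 71.5, 70.8 and 70.4% for shLuc 1 to 3 and 55.4, 21.7 and 49.8% for DMSO 24 h. There the 3 shLuc libraries were alike and above all DMSO 24 h libraries. All hairpin libraries are in the low set and all DMSO libraries in the high set, so these shares cannot part set from transduction.

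**Figure D3:**
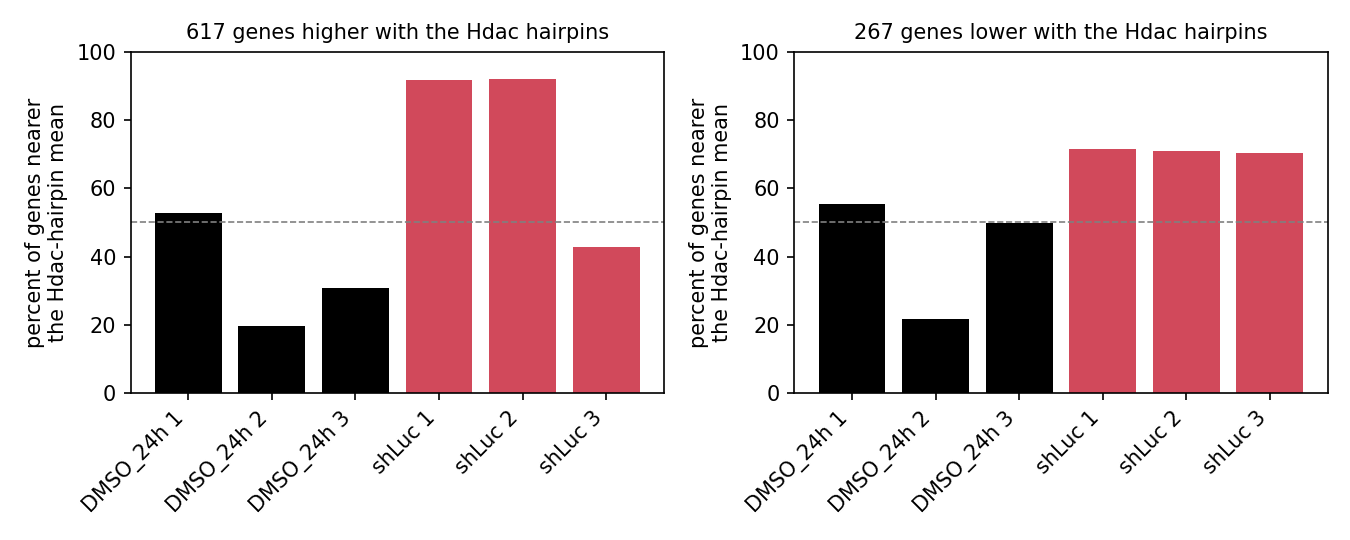
Share of genes (y axis, percent) on which each control library (x axis) lay nearer to the mean of shHdac1 and shHdac2 than to the mean of DMSO 2 h, for the 617 genes higher and the 267 genes lower with the Hdac hairpins; the dashed line marks an even split. For the higher genes shLuc 1 and 2 reach 91.6 and 91.9% and shLuc 3 reaches 42.8%, and for the lower genes all 3 shLuc libraries reach about the same share.

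Among 33 gene lists, that of the hypoxia response and glycolysis had the most calls without shLuc 3. With all libraries 0 of 33 tested members were called, although 31 had a positive log2 difference and the median was 0.70, against 0.0040 over all genes. In 14 of the 33 the 3 shLuc libraries lay above all DMSO 24 h libraries, and in 0 below, where 8.72% of all genes lay above and 8.66% below. Without shLuc 3, 19 of 34 tested members were called higher and 0 lower (median 0.90), against 3.41% and 2.52% of all genes. Called higher were Vegfa, Bnip3, Bnip3l, Ndrg1, Egln3, Car9, P4ha2, Ankrd37, Hk1, Hk2, Gpi1, Pfkfb3, Aldoa, Gapdh, Pgk1, Eno2, Slc2a3, Higd1a and Mxi1. In the Hdac hairpins against DMSO 2 h, 29 of 33 were called higher and 0 lower (median 1.30), against 13.8% and 14.9% of all genes. With the near-repeat hairpin libraries summed to 1, 25 of 34 were called there, without DMSO 2 h 1 and 2 the count was 14, and with the library set as a term it was 5, with a median of 1.65. In shLuc without replicate 3, summed in the same way, 0 were called and the median was 0.90. With the replicate block, 1 of 33 was called in shLuc with all libraries and 25 of 34 without shLuc 3.

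The regulators and effectors of the response are given first. Egln3, the oxygen-sensing prolyl hydroxylase that is itself a target of hypoxia-inducible factor, was measured at 126, 118 and 121 CPM in shLuc 1 to 3 and 78.9, 62.4 and 61.3 in DMSO 24 h 1 to 3. It was alike in all 3 shLuc libraries, shLuc 3 included, and its log2 change of 0.85 had an adjusted p of 0.052 with all libraries and 0.018 without shLuc 3 in edgeR. In DMSO 2 h it was measured at 51.4, 59.9 and 69.4 CPM and in the Hdac hairpin libraries at 158 to 229. Its relative Egln1, the main oxygen sensor, was measured at 191, 179 and 127 CPM in shLuc and 100, 98.2 and 111 in DMSO 24 h (adjusted p = 0.25 in edgeR). Ankrd37, a small ankyrin protein whose gene is a known target of the same factor, was measured at 6.51, 7.04 and 3.92 CPM in shLuc and 3.26, 3.25 and 2.36 in DMSO 24 h. Its shLuc libraries lay above all DMSO 24 h libraries, with shLuc 3 nearest to them.

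Vegfa, the growth factor for blood vessels, was measured at 459, 418 and 164 CPM in shLuc and 164, 105 and 41.9 in DMSO 24 h. The log2 change was 1.75 (SE 0.43, adjusted p = 0.17 in edgeR) with all libraries and 2.07 (adjusted p = 0.017) without shLuc 3, which lay level with DMSO 24 h 1. Bnip3, which drives the removal of mitochondria, was measured at 108, 118 and 25.7 CPM in shLuc and 35.2, 21.9 and 13.1 in DMSO 24 h, and the groups overlapped. Ndrg1, a stress gene often used as a hypoxia marker, was measured at 39.4, 40.6 and 5.43 CPM in shLuc and 12.7, 4.87 and 8.12 in DMSO 24 h. For these genes shLuc 3 lay within or just above the DMSO 24 h range and shLuc 1 and 2 were at least 2-fold above its top. Car9, a carbonic anhydrase of the cell surface, was measured at 7.31, 6.51 and 0.930 CPM in shLuc and 0.199, 0.609 and 0.0832 in DMSO 24 h. Its lowest values are a few counts.

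The enzymes of glycolysis are next, in the order of the pathway. Hexokinase 2 (Hk2), which traps glucose in the cell, was measured at 304, 292 and 217 CPM in shLuc and 204, 161 and 173 in DMSO 24 h, with no overlap (log2 change 0.60, adjusted p = 0.21 with all libraries and 0.035 without shLuc 3 in edgeR). Its relative Hk1 was measured at 127, 123 and 59.3 CPM in shLuc and 69.8, 65.8 and 69.4 in DMSO 24 h, so shLuc 3 was the lowest of the 6. Glucose-6-phosphate isomerase (Gpi1) was measured at 637, 659 and 419 CPM in shLuc and 284, 311 and 279 in DMSO 24 h, with no overlap. Aldolase A (Aldoa) was measured at 1444, 1515 and 711 CPM in shLuc and 660, 759 and 483 in DMSO 24 h, and shLuc 3 lay between the DMSO values. Gapdh, the dehydrogenase often taken as a reference gene, was measured at 1095, 1171 and 865 CPM in shLuc and 603, 514 and 559 in DMSO 24 h. All 3 shLuc libraries were above all DMSO 24 h libraries for Gapdh, and its log2 change of 0.90 had an adjusted p of 0.17 with all libraries and 0.030 without shLuc 3 in edgeR. Phosphoglycerate kinase 1 (Pgk1), which makes ATP in the next step, was measured at 266, 286 and 191 CPM in shLuc and 126, 109 and 96.1 in DMSO 24 h. Lactate dehydrogenase A (Ldha), which regenerates NAD+, was measured at 1303, 1430 and 1062 CPM in shLuc and 845, 776 and 607 in DMSO 24 h. Ldha was not called with (adjusted p = 0.27 in edgeR) or without (0.092) shLuc 3, although its groups did not overlap. Pdk1, the kinase that keeps pyruvate out of the mitochondria, was measured at 114, 115 and 46.1 CPM in shLuc and 39.4, 31.6 and 22.8 in DMSO 24 h (adjusted p = 0.056 without shLuc 3 in edgeR). Aldoc and the lactate exporter Slc16a3 went against the list, with log2 differences of -0.17 and -0.46, and neither was called.

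The vehicle libraries also differed among themselves on these genes. The median log2 CPM over the list was 6.39, 6.12 and 5.94 in DMSO 24 h 1 to 3, 5.89, 5.91 and 6.30 in DMSO 2 h 1 to 3, and 7.08, 7.06 and 6.39 in shLuc 1 to 3. The Hdac hairpin libraries lay at 7.30 to 7.65. shLuc 3 was thus level with DMSO 24 h 1. Each shLuc library was above the DMSO 24 h library of the same number, a pairing that is not established. DMSO 2 h 3 was high for single members, with Pgk1 at 273 CPM against 84.7 and 99.6 in DMSO 2 h 1 and 2. In the JNJ 24 h group, where both sets of the copy-to-parent ratio occur, 24 of 33 members were lower in both low-set libraries than in the high-set library and 4 were higher. Over all genes these shares were 32.8% and 34.4%. With the set as a term, the median of the list in shLuc against DMSO 24 h was 1.19 and 0 of 33 were called. Culture density and oxygen are not in the labels, and their part was not tested.

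**Figure D4:**
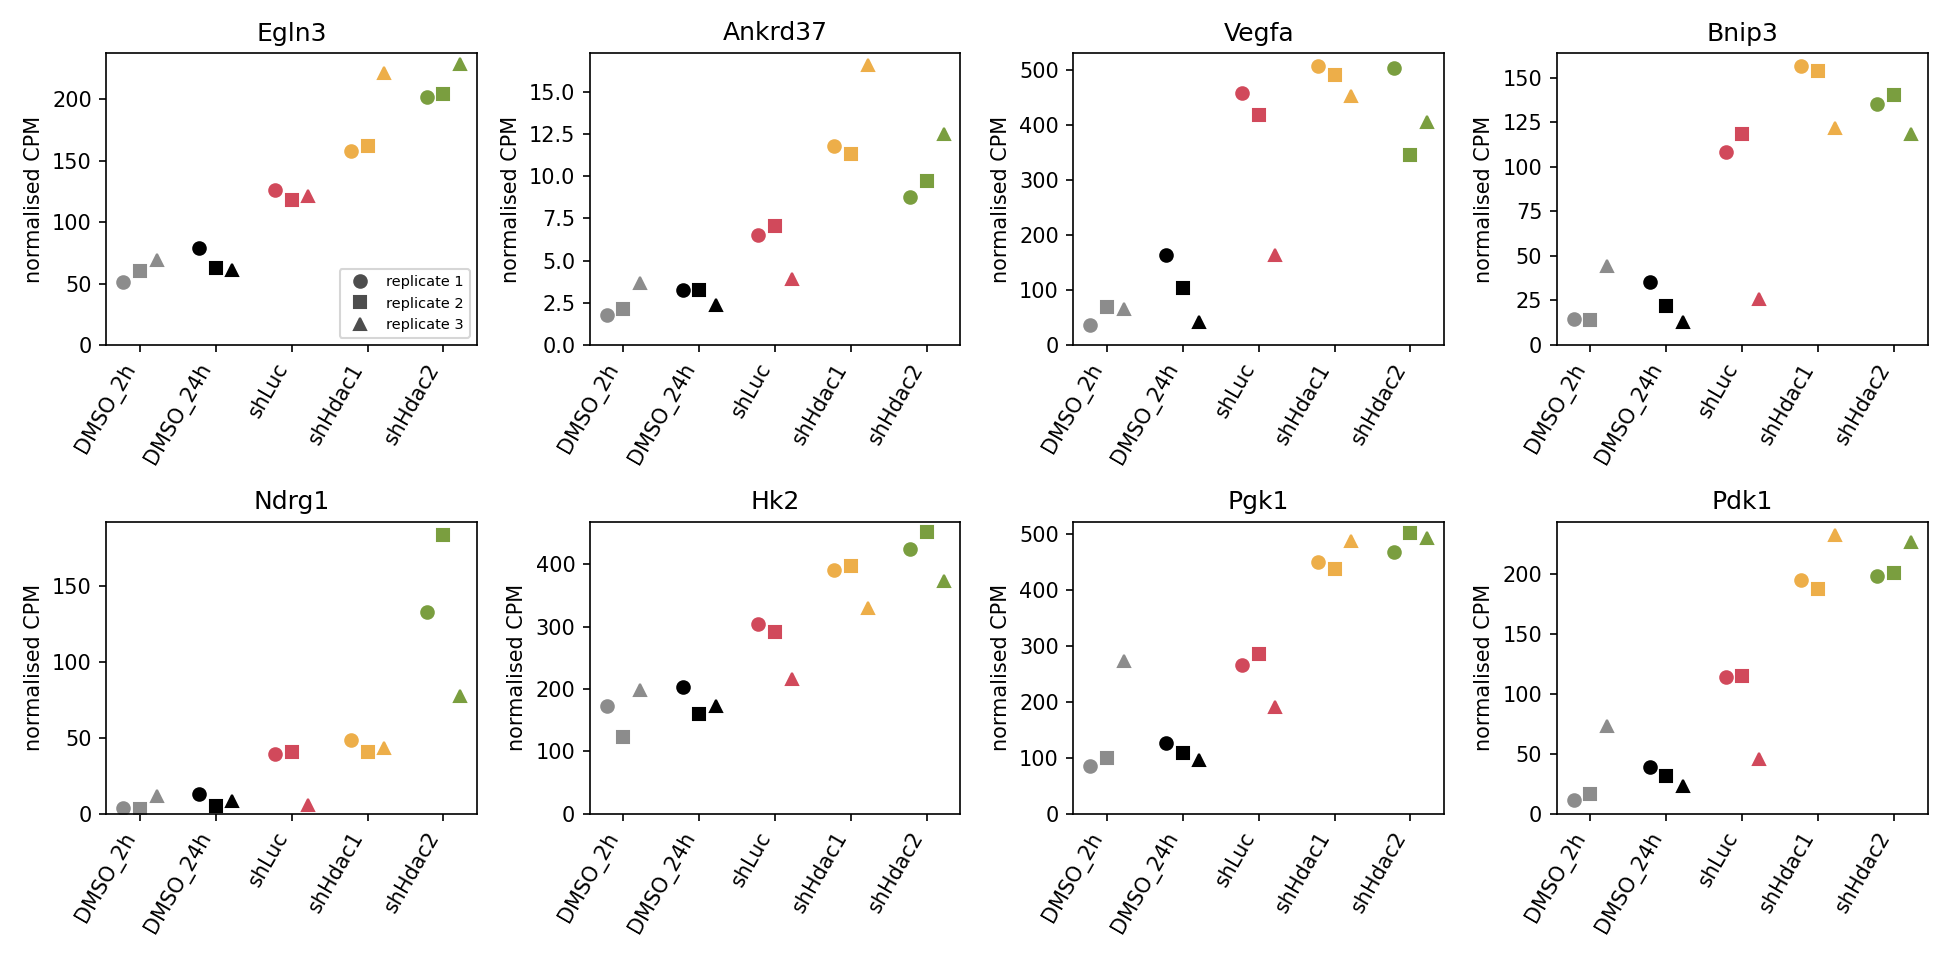
Level of 8 hypoxia and glycolysis genes (y axis, normalised CPM from 0) in the 15 libraries without drug, by group (x axis); each point is 1 library and its shape gives the replicate. For Egln3 the 3 shLuc libraries lie together at 118 to 126 CPM, above DMSO 24 h at 61.3 to 78.9, while for Ndrg1 shLuc 3 (5.43 CPM) lies among the DMSO 24 h libraries.

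The promoters of the list were examined for the core letters bound by hypoxia-inducible factor, ACGTG or GCGTG, on both strands (CACGT or CACGC when read on the strand shown). The window was the 250 bases before the annotated start (RefSeq, GRCm38). At least 1 match was found in 38.6% of 32851 promoters of the table. Of the list's tested members, 30 were in the table with 43 promoters, and 74.4% of these had a match. Sites can lie outside such a window, and promoters rich in CG hold these letters more often, so a match is a description only. Shown are promoters of 5 of the 14 members at which all shLuc libraries lay above all DMSO 24 h libraries, with the matches in capitals. They were chosen with their matches known, 4 with a match and 1 of Vegfa without. Vegfa has another promoter in the table with 2 matches, and Pdk1 has 1 promoter with and 1 without a match. Egln3 lies at chr12:54203875-54204124 (minus strand), Ankrd37 at chr8:45999851-46000100 (minus), Hk2 at chr6:82774455-82774704 (minus), Pgk1 at chrX:106186850-106187099 (plus) and Vegfa at chr17:46032378-46032627 (minus).
Egln3: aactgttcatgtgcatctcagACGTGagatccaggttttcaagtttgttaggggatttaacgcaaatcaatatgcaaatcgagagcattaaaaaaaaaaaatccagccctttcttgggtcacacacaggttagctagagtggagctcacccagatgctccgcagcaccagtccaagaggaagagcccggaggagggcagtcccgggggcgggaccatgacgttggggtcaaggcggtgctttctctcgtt
Ankrd37: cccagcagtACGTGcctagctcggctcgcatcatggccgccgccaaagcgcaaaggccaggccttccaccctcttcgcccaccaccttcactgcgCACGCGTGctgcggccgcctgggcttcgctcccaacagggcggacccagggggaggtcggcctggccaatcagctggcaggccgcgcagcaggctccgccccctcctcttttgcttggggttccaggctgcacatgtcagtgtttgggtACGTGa
Hk2: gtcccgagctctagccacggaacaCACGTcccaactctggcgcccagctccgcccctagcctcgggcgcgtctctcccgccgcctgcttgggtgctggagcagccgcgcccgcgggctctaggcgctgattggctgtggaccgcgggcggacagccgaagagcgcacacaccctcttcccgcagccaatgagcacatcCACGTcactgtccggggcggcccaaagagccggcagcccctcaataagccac
Pgk1: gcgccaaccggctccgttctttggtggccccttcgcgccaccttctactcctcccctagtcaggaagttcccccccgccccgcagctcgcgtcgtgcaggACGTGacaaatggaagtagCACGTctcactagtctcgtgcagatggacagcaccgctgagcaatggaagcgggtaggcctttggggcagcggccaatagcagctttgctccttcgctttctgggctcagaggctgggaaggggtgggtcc
Vegfa: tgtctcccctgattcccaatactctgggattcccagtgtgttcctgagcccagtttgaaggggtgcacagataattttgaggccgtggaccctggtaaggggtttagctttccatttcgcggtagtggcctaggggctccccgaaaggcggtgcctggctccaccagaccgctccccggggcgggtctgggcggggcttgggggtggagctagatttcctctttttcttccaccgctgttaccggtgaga
The windows hold 1, 4, 2, 2 and 0 matches, overlapping ones counted singly. One of the Ankrd37 matches overlaps another, where both strands carry the letters.

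Genes that a virus, a hairpin or puromycin could touch were examined next. Of the interferon-stimulated genes, which cells raise when they sense viral nucleic acid, 0 of 23 tested members were called with all libraries and 0 of 24 without shLuc 3. The median log2 difference was 0.64 and 0.17. Of 21 sensors and adaptors of nucleic acids, 0 were called with all libraries, and 1 was called higher without shLuc 3, whose values are not reported here. The guanylate-binding proteins Gbp9 and Gbp10, interferon-induced GTPases outside these lists, are named after their values were seen. Both were higher in all hairpin libraries than in all DMSO libraries. The same held for 1.34% of all genes and for 0 of the 23 interferon-stimulated genes of the list. Gbp9 was measured at 35.2, 33.9 and 15.0 CPM in shLuc and 8.57, 7.97 and 3.83 in DMSO 24 h (log2 change 2.04, adjusted p = 0.14 in edgeR, and 0.014 without shLuc 3). Of 17 genes of the RNA interference machinery 0 were called in either fit, and 14 had a negative log2 difference with a median of -0.14. Of 5 drug efflux transporters, which export compounds such as puromycin, 0 were called, with 4 negative. Of 16 genes of MHC class I presentation 0 were called.

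Stress and growth-arrest genes gave few calls. ATF4 stress genes, raised when amino acids run short or translation is disturbed, had 0 of 30 called with all libraries, a median of 0.51 and 28 positive members. Ddit3, the death factor CHOP, was measured at 31.3, 30.7 and 34.3 CPM in shLuc and 19.8, 10.9 and 7.79 in DMSO 24 h, with no overlap and shLuc 3 the highest (adjusted p = 0.16 in edgeR, and 0.050 without shLuc 3). Ddit4, an inhibitor of mTOR signalling raised by hypoxia and by stress, was measured at 489, 507 and 388 CPM in shLuc and 363, 258 and 214 in DMSO 24 h. Without shLuc 3, Ddit4 and Ddit3 were called higher and Wars lower. Of 23 p53 targets 0 were called with all libraries and 2 higher without shLuc 3, where 3.41% of all genes were called higher. The 2 were Phlda3, an inhibitor of AKT, and Bbc3, the killer protein PUMA. Cdkn1a, the p53 target p21, was measured at 152, 157 and 111 CPM in shLuc and 103, 58.8 and 97.6 in DMSO 24 h, and the groups did not overlap (adjusted p = 0.24 in edgeR). Cdkn1b, the CDK inhibitor p27, was measured at 231, 245 and 230 CPM in shLuc and 183, 126 and 150 in DMSO 24 h, alike in all 3 shLuc libraries (adjusted p = 0.17 in edgeR, and 0.046 without shLuc 3).

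Genes for DNA replication had mostly negative differences, with calls only without shLuc 3. Of 40 genes of G1/S and replication, 38 had a negative log2 difference with all libraries and a median of -0.29, 0 were called, and in 16 the shLuc libraries lay below all DMSO 24 h libraries (8.66% over all genes). Without shLuc 3, 9 were called lower and 0 higher (2.52% lower over all genes). Tyms, the enzyme that makes thymidylate, was measured at 44.0, 47.7 and 65.8 CPM in shLuc and 77.0, 90.6 and 95.0 in DMSO 24 h. Mcm4, part of the replicative helicase, was measured at 224, 226 and 325 CPM in shLuc and 328, 445 and 353 in DMSO 24 h. In both genes shLuc 3 was the shLuc library nearest to DMSO 24 h. Also called were Pola1, Ccne2, Fen1, Prim1, Orc1 and Gins1. In the Hdac hairpins against DMSO 2 h, 14 of the 40 were called lower and 1 higher (14.9% and 13.8% over all genes). Replication-dependent histone genes, which are made in S phase, had 29 of 33 negative differences, a median of -0.70 and 0 calls. Of 28 genes of ribosome biogenesis 0 were called with all libraries and 5 lower without shLuc 3, among them Heatr1 and Utp20, which process ribosomal RNA. Heatr1 was measured at 47.6, 47.4 and 125 CPM in shLuc and 81.0, 101 and 136 in DMSO 24 h.

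Ribosomal protein genes went the other way as a group. All 32 tested members had a positive log2 difference, with a median of 0.49, and in 23 the shLuc libraries lay above all DMSO 24 h libraries (8.72% over all genes), yet 0 were called. In the JNJ 24 h group 28 of the 32 were higher in both low-set libraries than in the high-set library and 0 were lower in both, against 34.4% and 32.8% of all genes. In the Hdac hairpins against DMSO 2 h, 8 of 32 were positive and the median was -0.14. In shLuc against DMSO 2 h, 7 of 32 were positive and the median was -0.11. Rpl19 was called without shLuc 3, at 1832, 2055 and 1090.1 CPM in shLuc and 1089.7, 1264 and 939.6 in DMSO 24 h. Reads of ribosomal protein genes are shared with many copies, so their counts are uncertain.

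Markers of tumour identity had no calls in shLuc against DMSO 24 h. Of 24 granule lineage genes 0 were called with or without shLuc 3, and log2 differences ran from -2.74 to 0.71 with all libraries. The groups did not overlap in 4 higher and 2 lower, where 8.72% of all genes lay higher and 8.66% lower. Of 17 hedgehog targets 0 were called, with or without shLuc 3, and the median was 0.081. In the Hdac hairpins against DMSO 2 h, 3 granule lineage genes were called higher and 5 lower. Of the hedgehog targets 5 were called higher there and 2 lower, where 13.8% and 14.9% of all genes were. In shLuc against DMSO 2 h, 3 granule lineage genes and 4 hedgehog targets were called higher and 0 lower. Over all genes 8.24% and 7.87% were called in that comparison. Gli1, the factor that both carries and reports the hedgehog signal, was measured at 191, 167 and 197 CPM in shLuc and 191, 170 and 130 in DMSO 24 h. Ptch1, the hedgehog receptor, was measured at 111, 103 and 146 CPM in shLuc and 69.8, 91.1 and 92.7 in DMSO 24 h, and Hhip, which traps the ligand, at 95.3, 92.0 and 158 and at 64.4, 69.5 and 39.9. Both genes were highest in shLuc 3, their groups did not overlap, and neither was called (adjusted p = 0.54 and 0.32 in edgeR). Mycn was measured at 68.7, 66.4 and 73.1 CPM in shLuc and 75.5, 45.1 and 79.7 in DMSO 24 h. Ccnd1, cyclin D1, had a log2 difference of -0.01. Atoh1, the factor that keeps granule precursors dividing, was measured at 324, 313 and 226 CPM in shLuc and 529, 487 and 385 in DMSO 24 h. Its groups did not overlap, its log2 difference was -0.70 (SE 0.21, adjusted p = 0.21 in edgeR), and in the Hdac hairpin libraries it was measured at 110 to 187 CPM.

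Without shLuc 3, some neuronal and surface genes were called higher, where 3.41% of all genes were. They include 5 of 35 genes of neuronal differentiation and synapse, among them Mapt, the microtubule protein tau, at 52.8, 54.1 and 14.7 CPM in shLuc and 13.1, 16.3 and 8.65 in DMSO 24 h. Syp, a synaptic vesicle protein, was measured at 105, 108 and 62.7 CPM in shLuc and 80.012, 52.5 and 65.1 in DMSO 24 h. Stmn4, Camk2b and Grin2b were also called. Of 22 Notch pathway genes the ligands Jag2 and Dll4 were called. Jag2 was measured at 21.1, 20.1 and 2.29 CPM in shLuc and 3.92, 3.32 and 2.97 in DMSO 24 h, so shLuc 3 was the lowest library of all 6. Dll4 was measured at 7.06, 7.27 and 2.91 CPM in shLuc and 1.84, 1.22 and 2.05 in DMSO 24 h, with no overlap. Of 39 matrix and integrin genes Col4a2, Thbs1, Itga3 and Col2a1 were called, and of 31 immediate-early genes Dusp4, Egr2 and Ier3. Of 28 sterol genes Abca1 and Abcg1, the transporters that export cholesterol, were called, while 25 of the 28 were negative. The list of non-neural markers had 12 of 14 positive differences without shLuc 3 and 0 calls, and its part in these genes was not tested.

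**Figure D5:**
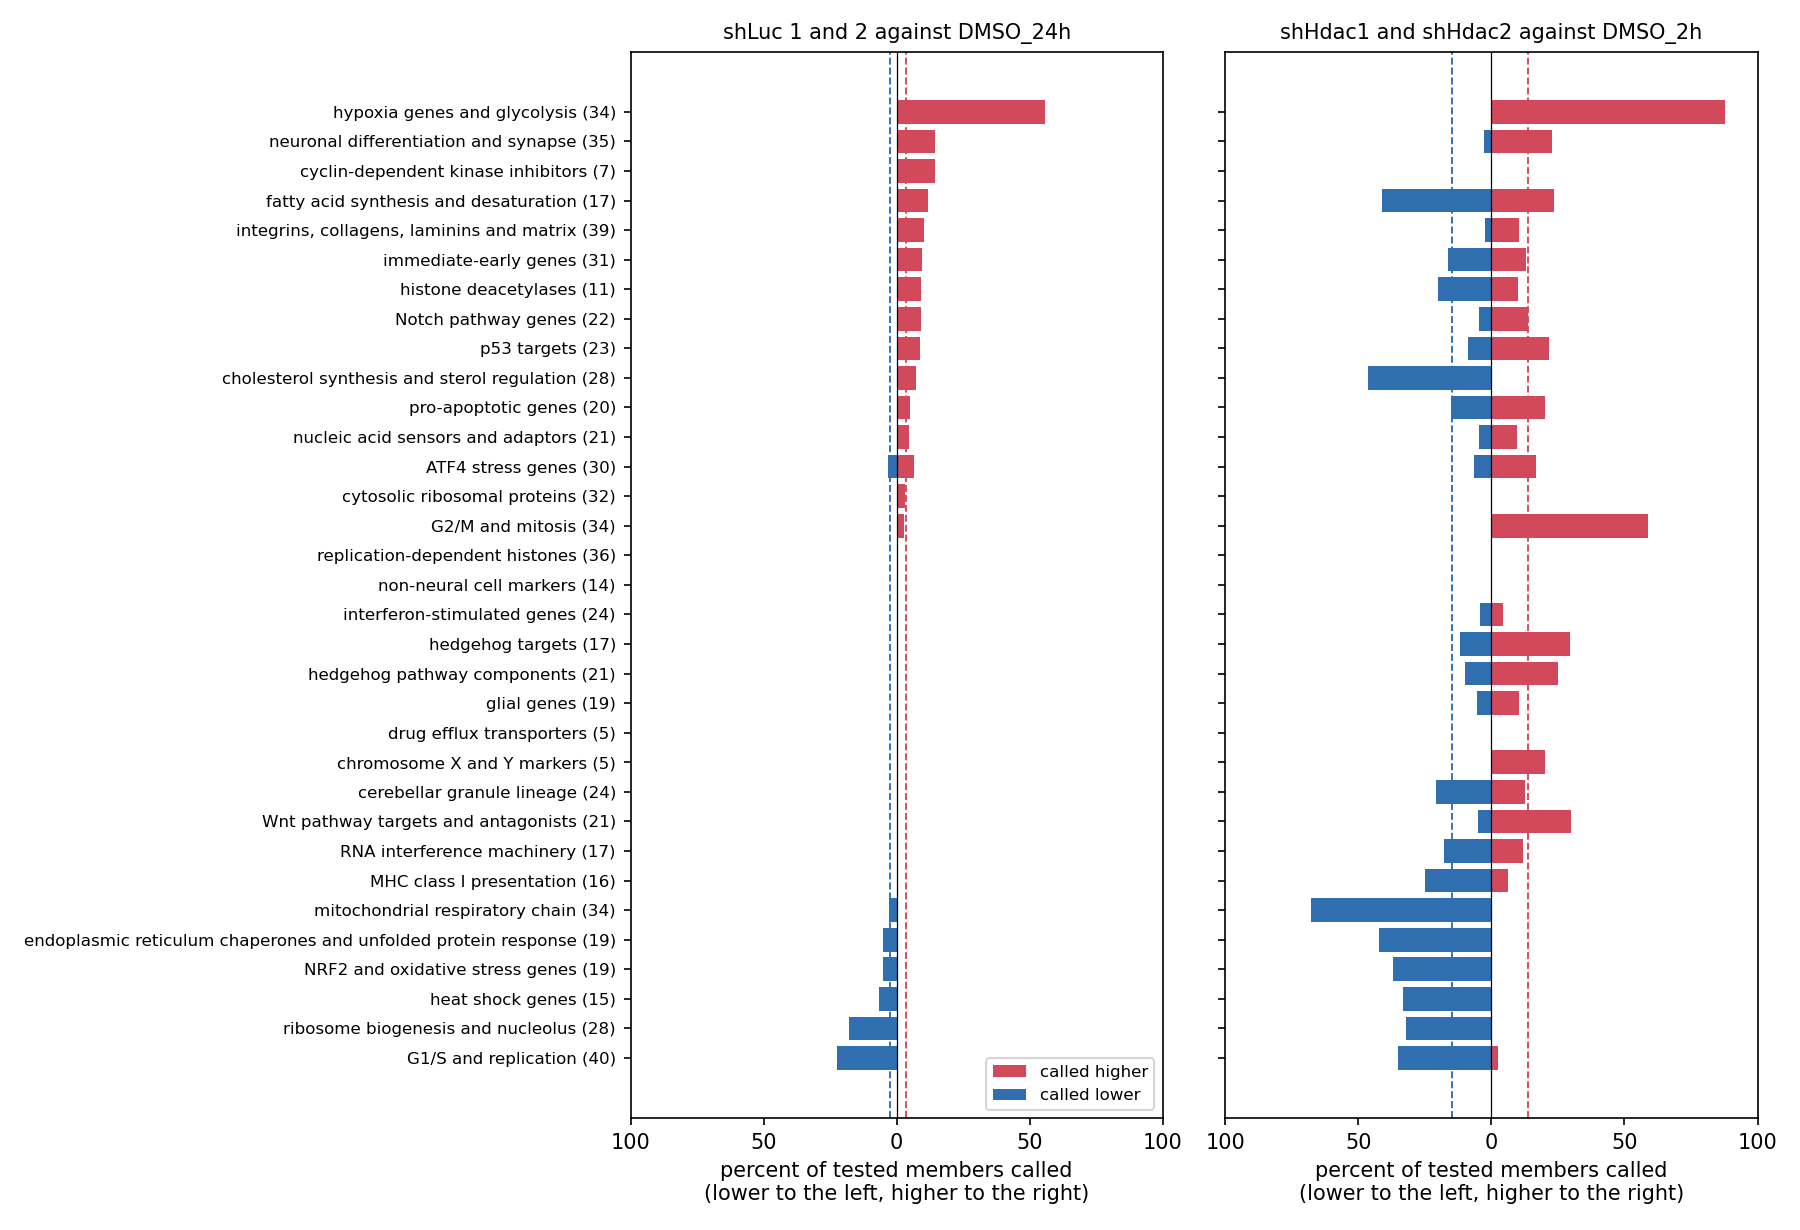
Share of tested members called (x axis, percent, lower to the left and higher to the right) in each gene list (y axis, with the number tested in the left comparison), for shLuc without replicate 3 against DMSO 24 h and for shHdac1 and shHdac2 against DMSO 2 h; the dashed lines mark the shares over all genes. Hypoxia and glycolysis is the list with the largest share called higher in both panels, 19 of 34 and 29 of 33.

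The DMSO 24 h group held a split of its own. The 4 Y-linked genes measured (Ddx3y, Kdm5d, Eif2s3y and Uty) summed to 201, 64.0 and 173 CPM in DMSO 24 h 1 to 3 and 194, 191 and 217 in shLuc 1 to 3. The low value of DMSO 24 h 2 recurred in DMSO 2 h 1 and 2 (54.5 and 50.4 CPM), JNJ 2 h 2 (49.6) and JNJ 24 h 2 (49.95). Serpinh1, a chaperone of collagen, was measured at 27.0 CPM in DMSO 24 h 2 and 27.3 in JNJ 24 h 2, against 0.653 and 0.305 in DMSO 24 h 1 and 3 and 0.155 to 0.880 in shLuc. Without DMSO 24 h 2, 7 genes were called between shLuc and DMSO 24 h, 1 higher and 6 lower, all among the 12.

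Against the earlier vehicle time the same shLuc libraries gave more calls. In shLuc against DMSO 2 h, 2254 of 13992 genes (16.1%) were called, 1153 higher (8.24%) and 1101 lower (7.87%), and with the replicate block 3779. With library totals as the only scaling, 62.7% of the calls were higher, against 51.2%. Without shLuc 1 or shLuc 2 the count was 241 or 368, without shLuc 3 it was 4111, and without DMSO 2 h 2 it was 646. In a fit to the 6 libraries alone 8 genes were called. Both comparisons share the shLuc libraries, so their values are given side by side only. Vegfa was measured at 37.1, 69.6 and 65.1 CPM in DMSO 2 h and at 164, 105 and 41.9 in DMSO 24 h.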

How the data were processed

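RNA-seq of SMB21 cells was analysed from the deposited table of gene counts for 21 libraries. Per the labels' protocols, stranded single-end 75 bp libraries were made from 500 ng of total RNA and sequenced in 2 NextSeq 500 runs. Per the submitters' processing notes, STAR 2.5.1b and mm9 were used. The sources used here do not name the counting tool, its strand setting or its rule for reads with several matches. The table held 24047 genes, of which 4115 had no count and 14 had names turned into dates. Counts were tested with edgeR 4.0.16 in R 4.3.3 (quasi-likelihood test, TMM scaling, filterByExpr with a minimum count of 10 and total of 15), in 1 fit of the 15 libraries without drug by group, with Benjamini-Hochberg adjustment over all genes tested and a threshold of 0.05. The common biological coefficient of variation was 0.24. A count of 3, the limit that a count of 0 allows, was 0.0763 to 0.13 CPM by library, for counting error only. CPM values are TMM-normalised. DESeq2 1.42.0 and limma 3.58.1 were alternatives. The code was tested on simulated data.

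Genes were to be named where called, without overlap of the groups, at a mean CPM of at least 5 and called in each fit without 1 library, up to 15 in each direction, which Rpl14-ps1 and Gm6548 met. The other called genes, list members and genes fixed by name are given beside them, and were named with their values known. The groups and lists were chosen with earlier results of these data known. Same-numbered shLuc and DMSO 24 h libraries deviated from their group means together across genes (residual correlation 0.344, 0.272 and 0.618). Replicates 1 and 2 did so across numbers as well, at 0.333 for shLuc 2 with DMSO 24 h 1 and 0.287 for shLuc 1 with DMSO 24 h 2. Replicate 3 alone was apart, at -0.577 to -0.306 with the others. Since shLuc 1 and 2 nearly repeat each other, their values with any DMSO 24 h library had to be alike. They therefore cannot decide whether replicates 1 and 2 are paired by number. Replicate 3 also went with DMSO 2 h 3, at 0.335 for shLuc, 0.272 for shHdac1 and 0.3 for shHdac2. Pairing by number is thus not established. The fit with the replicate number as a block is given as an alternative beside counts it moved. Promoter sequences are from RefSeq (GRCm38). Results for some genes are not reported here.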

Additional observations from a re-analysis of the deposited data

How the results depend on the processing

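Few genes separated shLuc from DMSO 24 h, and how many depended on the libraries fitted. Leaving out 1 library gave 3 to 844 genes against 12. The count was 0 with only the compared libraries, 1 with all 21 libraries, 208 with DESeq2, 37 with the replicate block, 1834 with the replicate block and without shLuc 3, 281 without shLuc 3 and DMSO 24 h 2, 7 without pseudogene rows, and 0 with the library set as a term or with shLuc 1 and 2 summed, with or without shLuc 3. For shLuc against DMSO 2 h, leaving out 1 library gave 241 to 4111 genes against 2254. The count was 8 with only the compared libraries, 906 with all 21 libraries, 3779 with the replicate block, 4774 without shLuc 3 and DMSO 2 h 1 and 2, 23 with replicates 1 and 2 summed and 0 with the library set. For the Hdac hairpins against DMSO 2 h, the range was 2391 to 4295 against 4012, with 2107 after summing and 14 with the library set. The cause was not tested. The alternatives that sum, drop several libraries, add the set or leave out pseudogene rows were chosen after seeing the data.

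Directions turned almost only with the library set as a term. That set was defined by the ratio of Rpl14-ps1 to Rpl14, and its term rests on JNJ 24 h 2 and 3 against JNJ 24 h 1. The turned values are therefore a description only. In shLuc against DMSO 24 h the log2 change was then 0.46 for Rpl14-ps1, 0.36 for Gm6251, 0.036 for Npm3-ps1, 0.91 for Mir682, 0.95 for Aldoart1, 0.20 for Gm3258 and 0.073 for Gm13498. Against DMSO 2 h it was 0.11 for Npm3-ps1, 0.72 for Mir682, 0.74 for Aldoart1 and 0.52 for Tubb2a-ps2. For the Hdac hairpins it was 0.025 for Rpl14-ps1, 0.34 for Npm3-ps1, 0.27 for Mir682, 1.11 for Aldoart1 and 0.42 for Tubb2a-ps2. Serpinh1 was at 0.31 in the Hdac hairpins without DMSO 2 h 1 and 2.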

Other observations

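Further lists were called in the Hdac hairpins against DMSO 2 h, the comparison that shares no library with shLuc and DMSO 24 h. Of 34 genes of G2/M and mitosis 20 were called higher and 0 lower (13.8% and 14.9% over all genes), where shLuc against DMSO 24 h had 0 called and a median log2 difference of 0.028. Of 34 genes of the mitochondrial respiratory chain 23 were called lower and 0 higher, against the same shares, where shLuc had 0 called and a median of -0.082. Of 28 genes of cholesterol synthesis 13 were called lower and 0 higher, where shLuc had 0 called, with 26 negative and a median of -0.29. The vehicle group also differs between both comparisons. In shLuc against DMSO 2 h, 14 of the 34 G2/M genes were called higher and 0 lower. Of the respiratory chain genes 13 were called lower there and 0 higher, and of the cholesterol genes 13 lower and 1 higher. Over all genes 8.24% were called higher and 7.87% lower in that comparison. The difference between the comparisons was not tested.

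Outside the lists, Txnip, a brake on glucose uptake, was measured at 270, 272 and 97.3 CPM in shLuc 1 to 3 and 113, 96.6 and 58.5 in DMSO 24 h 1 to 3. Bhlhe40, a repressor of transcription, was measured at 102, 103 and 39.5 CPM in shLuc and 23.1, 37.0 and 16.1 in DMSO 24 h. Both were called only without shLuc 3 in edgeR (adjusted p = 0.0080 and 0.021).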
